A study of Mus musculus with 6 samples.

Results

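The 288 probes described here gave a signal in adult mouse liver that the scanner could tell from background, and none before birth that it could. They belong to the ASMM10P family, the main probe family of a long noncoding RNA array, and were selected on the scanner's own detection flag, which was set on all 3 adult arrays and on no prenatal array. A probe also had to be listed in the value table that accompanies the arrays. That table holds 16633 of the 58141 ASMM10P probes of the array, so the members make up 1.73% of the tabled ASMM10P probes. The opposite set, with the flag on every prenatal array and on none from adults, held 754 tabled probes, or 4.53%. Another 198 ASMM10P probes met the flag criterion but lie outside the table. In all, 31647 ASMM10P probes had the flag on at least 3 arrays, as every tabled probe did. Why many of these are not in the table was not examined.

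The prenatal group consists of 3 arrays of liver RNA taken at E18 (one sample field reads E18.5), and the adult group of 3 arrays of liver RNA from mice 2 months old. Both groups are C57BL/6, with no treatment or altered allele named. The RNA was commercial, and each group is stated to come from 3 animals. Sex, and whether animals were pooled, are not given in the sources used here, and one field of the prenatal samples names the tissue as embryo. The p-values below therefore weigh group differences against the spread between these samples. Whether that is a spread between animals is not known.

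As background, a long noncoding RNA is a transcript that is not translated into protein. Many are transcribed in few cell types or at one stage of life, and often from the same neighbourhood as a protein-coding gene. The liver of the late mouse embryo is still a site of blood formation, and its hepatocytes take on most of their adult metabolic functions around and after birth. In bulk tissue, more cells of a type and more RNA per cell cannot be told apart. The files do not pair ASMM10P probes with genes, sequences or genome positions, so members are given by probe name. Without such a pairing it is also not known whether a given member reads a noncoding or a protein-coding RNA. For the same reason liver markers could hardly be checked: of 42 markers of liver cell types, 1 had a named probe. This was Tfrc, the transferrin receptor of erythroid precursors, whose log2 level, scaled as described below, was 8.14 ± 0.15 (SD, n = 3) in the prenatal group. Its adult level was 4.52 ± 0.23 (SD, n = 3).

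Arrays differed in brightness, which bears on any set defined by detection. The 75th percentile of the raw signal was 151.9 on prenatal replicate 2, against 69.4 to 114.3 on the other 5 arrays, and 60.5% of its spots were detected, against 45.1% to 51.3%. Prenatal replicate 1 stood apart from its group, correlating at 0.893 and 0.915 with the other prenatal arrays, which correlated at 0.983 with each other (Pearson, across tested probes). No spot was saturated. Of 300 spots of negative control probes, 25 were detected on prenatal replicate 1 and 1 to 7 on each other array. With 3 arrays a group, precision is limited by their number.

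Levels are given as log2 of the scanner's processed signal minus the 75th percentile of the array, so that 0 is the level of that percentile. They describe spot brightness and depend on the probe, so their order is not an order of RNA amounts. Most members were dim in the adult. The mean adult level had a median of -1.32 over the 288 probes, with quartiles of -1.72 and -0.39, a lowest value of -2.30 and a highest of 11.36. In all, 184 members (63.9%) had a mean below -1, and 46 lay between -1 and 0. Another 41 lay between 0 and 3, 10 between 3 and 8, and 7 at 8 or more. Between the 7 brightest members, which started at 8.71, and the next, at 6.03, there was a gap.

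**Figure D1:**
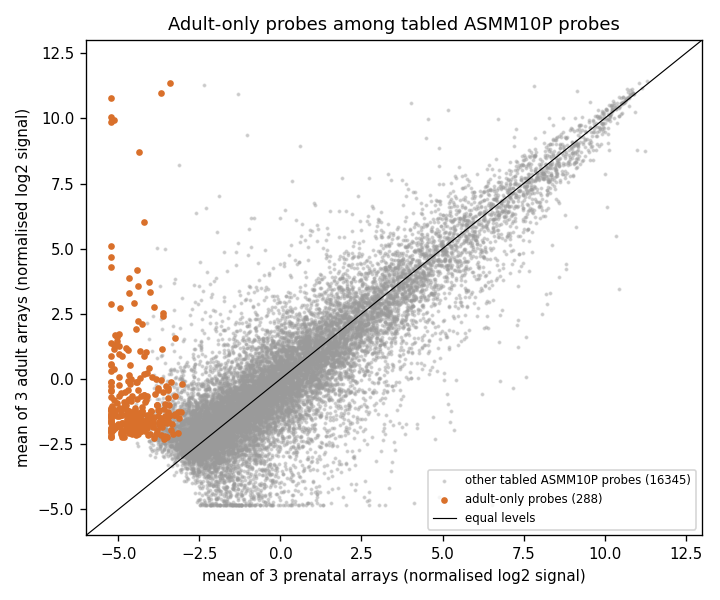
Each point is a tabled ASMM10P probe, with its mean normalised log2 signal on the 3 prenatal arrays on the x axis and on the 3 adult arrays on the y axis, and a line of equal levels. The 288 adult-only probes (orange) lie at the left edge because the rule placed them there; most have an adult mean below 0, and 7 lie at 8 or more.

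Before birth, the members' signals were at or near the bottom of each array's range. The scanner software gives one fixed lowest value to every spot whose signal is not positive and significant, and 156, 60 and 124 members sat at that value on prenatal replicates 1, 2 and 3. The other members carried a signal that passed this weaker flag without being well above background. The weaker flag was set on all 3 prenatal arrays for 92 members, on 2 for 92, on 1 for 64 and on none for 40. A signal below the stronger flag was thus present on at least 1 prenatal array for most of the set, and "adult-only" refers to the stronger flag.

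The brightest member was ASMM10P028912. Its normalised log2 signal was -3.62, -3.70 and -2.89 on prenatal replicates 1, 2 and 3 and 11.11, 11.55 and 11.41 on adult replicates 1, 2 and 3. In raw units these are 6.0, 11.7 and 11.2 against 253522, 207741 and 213800. No prenatal value came near an adult one, and the adult arrays lay close together, at 11.36 ± 0.22 (SD, n = 3).

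ASMM10P048542 followed, with -3.91, -3.71 and -3.40 before birth and 10.68, 11.24 and 11.01 in the adult, again with the weaker flag set on all 3 prenatal arrays. ASMM10P027203 had 10.40, 10.87 and 11.05 in the adult and sat at the lowest value of all 3 prenatal arrays (-4.78, -5.89 and -5.02). ASMM10P028914 had 9.80, 10.16 and 10.19 and was likewise at the lowest value of each prenatal array. These prenatal numbers differ only because the arrays were scaled differently, and they have no order among themselves. ASMM10P000478 had adult signals of 9.75, 10.13 and 9.96, and ASMM10P027205 had 9.42, 9.93 and 10.21. ASMM10P001297 had 8.53, 8.64 and 8.95. On each of these 7 probes every adult value lay above 8, and no prenatal array detected the probe.

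The next 3 were ASMM10P027191 with 6.45, 5.68 and 5.96 on the adult arrays, ASMM10P055456 with 5.42, 5.09 and 4.84, and ASMM10P027186 with 5.25, 4.41 and 4.36. Adult replicate 1 was the highest array on all of them, whereas it was the lowest adult array on each of the 7 brightest. The probes therefore did not share one order of the adult arrays.

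**Figure D2:**
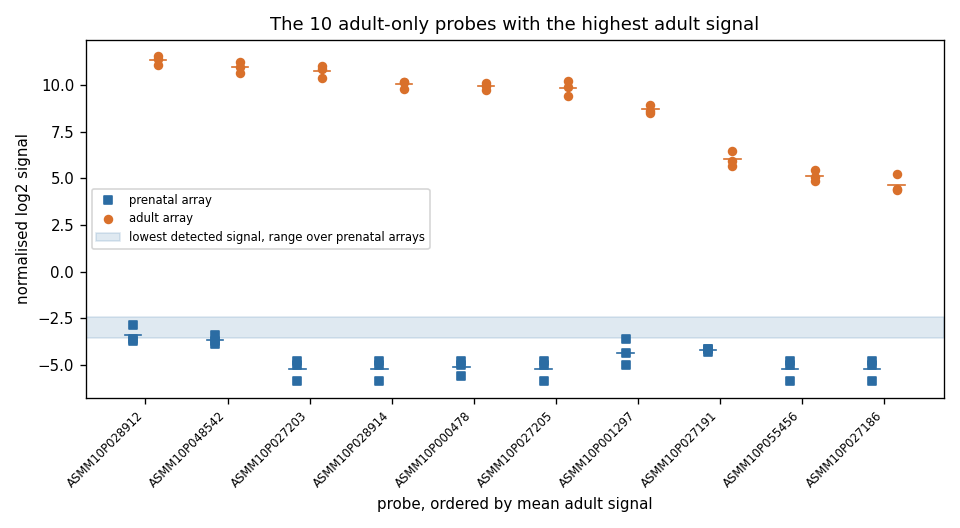
Normalised log2 signal of the 10 adult-only probes with the highest mean adult signal, with 1 point per array, 3 prenatal (blue squares) and 3 adult (orange circles), and short lines for group means; the shaded band spans the lowest detected signal of the 3 prenatal arrays. Every adult point lies above 4, and the prenatal points lie within or below the band.

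Because no prenatal signal was well above background, the size of each change is known only as a lower bound. The bound is the adult mean minus the prenatal mean of the higher of the probe's own signal and the lowest detected signal of that array. The lowest detected signals were -2.46, -3.57 and -2.70 on prenatal replicates 1, 2 and 3. No member's own signal exceeded them, so the bound is the adult level plus a constant and carries no information beyond it.

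For ASMM10P028912 the processed signal was at least 19696-fold higher in the adult, a bound of 14.27 on the log2 scale. The bound was at least 15089-fold for ASMM10P048542, 13114-fold for ASMM10P027203 and 3131-fold for ASMM10P001297. These folds are of spot brightness, and all bounds here are for the processed signals unless another correction is named. A normexp background correction with an offset of 50 shrinks changes of dim signals. With it, the log2 difference between the group means was 11.80 for ASMM10P028912. It was 14.76 with the processed signals and 14.64 in the authors' deposited table. The normexp difference lies below the bound of 14.27, so that bound does not hold under the normexp correction.

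Over all members the median bound was 3.00-fold (1.59 on the log2 scale), with quartiles of 2.27 and 5.72 and a range from 1.52-fold up to that of ASMM10P028912. At least 2-fold was reached by 245 members, at least 4-fold by 99, at least 10-fold by 47, at least 100-fold by 14 and at least 1000-fold by 7. For the remaining 43 the bound was below 2-fold. The median bound was 1.25 on the log2 scale without prenatal replicate 2, 1.81 without prenatal replicate 1, and 0.67 with the normexp correction.

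**Figure D3:**
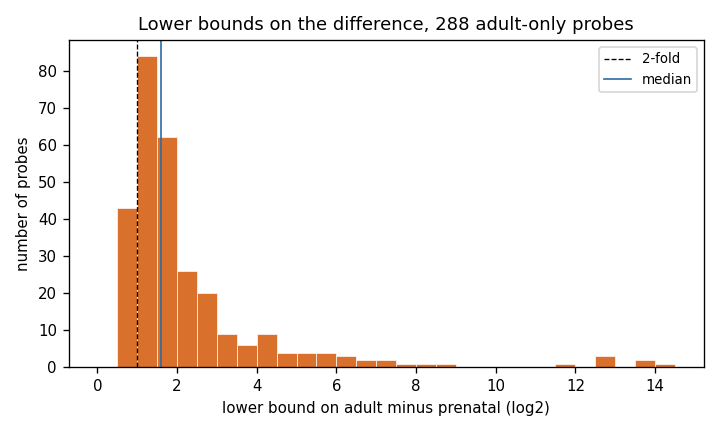
Number of adult-only probes by the lower bound on the log2 difference, adult minus prenatal, in bins of 0.5; the dashed line marks 2-fold and the blue line the median of 1.59. Most probes lie below 3, and the 7 brightest form a separate group above 11.

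The groups did not overlap on any of the 288 probes. The lowest adult value exceeded the highest prenatal value by 0.12 to 15.18 (median 2.47), and by more than 1 for 264 probes. These gaps take undetected prenatal signals at their measured value and are not bounds. Among all 32336 tested probes, 27.1% had adult values that lay wholly above the prenatal ones. In the limma fit over all tested probes, 283 of the 288 were called higher in the adult at an adjusted p under 0.05. The background was 15.8% called higher in the adult and 27.8% called in either direction. Since the detection flags that chose the members come from this same contrast, nothing is read from these counts. With the normexp correction 137 members were called higher, where the background was 12.2% of all tested probes called higher. This count too is a description only.

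The 5 members that were not called had limma adjusted p of 0.0574 to 0.0932. For these, ASMM10P022835, ASMM10P048499, ASMM10P056980, ASMM10P028872 and ASMM10P037797, named after their values were seen, the bound was 1.59-fold to 2.27-fold. Their prenatal values were uneven: ASMM10P022835, for example, had -2.50, -4.74 and -2.78 before birth and -1.40, -1.70 and -2.06 in the adult.

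Members just inside the rule had adult signals only slightly above detection. The lowest was ASMM10P012134, with -2.45, -1.95 and -2.51 on the adult arrays against -3.02, -4.18 and -3.54 on the prenatal arrays, and a bound of 1.52-fold. ASMM10P029410 had -2.21, -1.98 and -2.58 in the adult and ASMM10P019144 had -2.14, -2.11 and -2.46. All 3 lay close to the lowest detected signals of the adult arrays, which were -2.67, -2.17 and -2.66. Over all members, the adult array closest to its own lowest detected signal lay a median of 1.67-fold above it. It lay within 1.5-fold for 117 members and within 1.2-fold for 49. That closest array was adult replicate 2 for 199 members, adult replicate 1 for 49 and adult replicate 3 for 40.

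Just outside the rule were 363 tabled ASMM10P probes detected on all 3 adult arrays and 1 prenatal array. For 328 of them that array was prenatal replicate 2, the brightest, for 22 it was replicate 1 and for 13 replicate 3. ASMM10P025875, for example, had -2.97, -3.57 and -3.48 before birth and -2.53, -1.95 and -1.64 in the adult, and was detected on prenatal replicate 2 alone. ASMM10P050541 had -2.86, -3.56 and -3.22 before birth, and ASMM10P000909 had -4.59, -3.56 and -4.17, both also detected only there. The highest prenatal means among the members were of the same order, at -3.04 for ASMM10P013390, -3.07 for ASMM10P022052 and -3.14 for ASMM10P024960. Without prenatal replicate 2 the rule would have taken 616 tabled probes in place of 288, without prenatal replicate 1 it would have taken 310 and without replicate 3 301. The set was thus largest without prenatal replicate 2, the brightest array. The part of brightness in the size of the set, or in the membership of single probes, was not tested.

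Agreement between the adult arrays was described by the SD of the 3 normalised values. Its median over the members was 0.31, against 0.29 over the 12837 other tabled ASMM10P probes detected on all 3 adult arrays. Among probes with an adult level below -1, the medians were 0.34 for 184 members and 0.31 for 3229 others. At a level of 3 or more they were 0.28 for 17 members and 0.26 for 2682 others. The SD was below 0.5 for 223 members and above 1.0 for 6. All of these are descriptions, since the rule required detection on every adult array and so removed probes with 1 dim adult value.

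The closest agreement was on ASMM10P050715, with adult values of -1.85, -1.84 and -1.85 and an SD of 0.0069. ASMM10P057691 had -1.68, -1.70 and -1.68, and ASMM10P015213 had -0.22, -0.27 and -0.23. At the other end was ASMM10P042822, with 3.58, 1.53 and 3.64 and an SD of 1.20, where adult replicate 2 lay well below the other adult arrays. ASMM10P043456 had -0.52, -0.16 and 1.59, with replicate 3 apart, and ASMM10P019040 had 1.04, -0.997 and -0.322, with replicate 1 apart. No single adult array was therefore the odd one in these 3 cases. The adult and prenatal values did not overlap on these 3 probes, as on every member. The flags that chose the members come from this same contrast, so nothing is read from this.

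Across the 288 members, the adult arrays correlated at a Pearson r of 0.960 to 0.975 and a Spearman rho of 0.723 to 0.811. Without the 15 brightest members, the Pearson values were 0.866 to 0.912. These correlations are across probes read on the same arrays and are given without a test. Adult replicate 2 gave the highest of the 3 values for 111 members, replicate 1 for 97 and replicate 3 for 80. The median deviation from a member's own adult mean was 0.07, 0.00 and -0.06 on adult replicates 2, 1 and 3, against 0.05, -0.06 and -0.02 over the other tabled probes.

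Arrays that took no part in a choice gave a view of the set that the choice did not fix. All ASMM10P probes were used for this, tabled or not, because each tabled probe was detected on at least 3 arrays, so the table depends on every array. When the rule was applied to 5 arrays, the array left out showed the required flag for 95.1% of probes on prenatal replicate 3 (486 of 511) and on adult replicate 3 (486 of 511). The share was 91.2% on adult replicate 1 and 89.8% on prenatal replicate 1. It was lower on adult replicate 2, at 69.7% (486 of 697), and lowest on prenatal replicate 2, at 43.4% (486 of 1119). The count of 486 recurs because it is always that of probes meeting the rule on all 6 arrays. Over all spots, 47.9%, 60.5% and 51.3% were detected on prenatal replicates 1, 2 and 3, where the rule asks for no detection. On adult replicates 1, 2 and 3, where it asks for detection, the shares were 50.2%, 45.1% and 50.8%. The array left out thus repeated the flag least often where it was the brightest prenatal array or the adult array with the fewest detected spots.

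**Figure D4:**
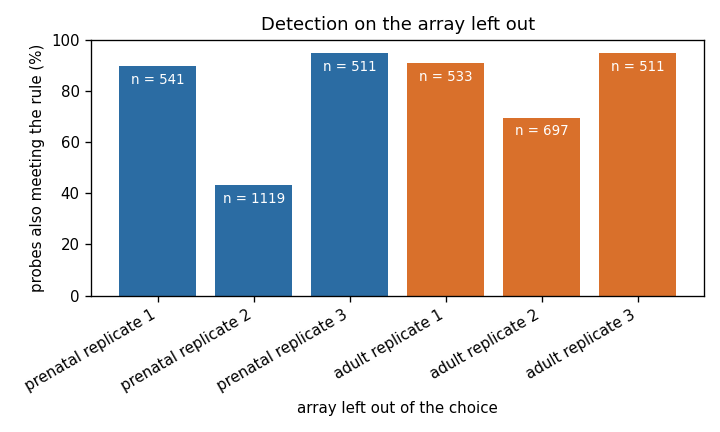
Bars give, for each array left out in turn, the percentage of ASMM10P probes meeting the rule on the other 5 arrays that also met it on the array left out; n is the number of probes chosen on the other 5. Prenatal replicate 2, at 43.4%, and adult replicate 2, at 69.7%, lie below the other 4 arrays, which range from 89.8% to 95.1%.

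The arrays were scanned on 2 dates, the first with 2 arrays of each group and the second with prenatal replicate 1 and adult replicate 3. Of 567 ASMM10P probes chosen on the 4 arrays of the first date, 549 (96.8%) were higher on the adult than on the prenatal array of the second date, with a median log2 difference of 3.04. Over all 31647 tested ASMM10P probes, 54.0% were higher on that adult array and the median difference was 0.13. The required flags were met on both arrays of the second date by 486 of the 567 (85.7%). In the other direction, 5131 probes were chosen on the second date, from 1 array of each group. Of these, 486 (9.47%) met the rule on the first date, and 4062 (79.2%) were higher in the adult there. The share of all tested probes higher on the first date is not given here, so nothing is read from the 79.2%. The first date includes prenatal replicate 2, the brightest array, and the reason for the low 9.47% was not tested. For the 288 members, the median log2 difference was 3.35 within the first date and 3.14 within the second, and all 288 were higher in the adult within each. The rule used the arrays of both dates, so it fixed this direction, and these values are a description only.

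Probe names carry a running number, and the members were spread over nearly its whole range. Per block of 5000 numbers, 0.794% to 2.67% of the tabled probes were members. The highest share was in the block from 25001 to 30000, with 46 of 1726. Of the 288 members, 270 had no member directly before or after them. The other 18 formed 8 runs of consecutive numbers, 7 of them pairs and 1 of 4 probes.

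The run of 4 comprised ASMM10P027202 to ASMM10P027205. ASMM10P027202 had adult values of 3.82, 3.88 and 5.25, ASMM10P027203 and ASMM10P027205 were among the 7 brightest (above), and ASMM10P027204 had -1.68, -1.07 and -0.65. All 4 sat at the lowest value on each prenatal array, and on all 4 adult replicate 1 was the lowest and adult replicate 3 the highest adult array. Their mean adult levels nevertheless ranged from -1.13 to 10.77.

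The pairs were as uneven. ASMM10P000477 had adult values of -0.18, -0.63 and 0.02, whereas its partner ASMM10P000478 lay near 10 (above). ASMM10P019163 had a mean adult level of -0.79 and ASMM10P019164 of 2.87. For ASMM10P036273 and ASMM10P036274 the means were 3.31 and 0.41, for ASMM10P046586 and ASMM10P046587 they were 1.27 and -1.72, and for ASMM10P028916 and ASMM10P028917 they were 3.35 and -1.89. In the other 2 pairs both probes were dim, with means of -0.59 and -1.33 for ASMM10P012833 and ASMM10P012834 and of -1.43 and -1.11 for ASMM10P051155 and ASMM10P051156. Adjacent members thus shared the detection pattern that chose them, and in 6 of the runs their levels differed by more than 1.5 on the log2 scale.

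When the adult-only probes outside the table were counted as well, 17 runs with 39 of the 486 probes were found, 14 of length 2, 2 of length 3 and 1 of length 5. The untabled ASMM10P020056, with adult values of 10.64, 11.04 and 11.12, lay between the dim members ASMM10P020055 (mean -0.41) and ASMM10P020057 (mean -1.95). The run of 4 gained ASMM10P027206, with 10.10, 10.49 and 10.40, and became the run of 5. The third, of length 3, joined ASMM10P027184 and ASMM10P027186 through the untabled ASMM10P027185. As a set, the 198 untabled probes had a median adult level of -0.83 and a median bound of 2.08 on the log2 scale, and 7 of them had an adult mean of 8 or more.

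A pair of stretches of the numbering held many of the bright probes. They were picked after the values were seen, as groups of at least 5 members no more than 20 numbers apart, widened while a probe within 2 numbers had an adult mean above 3. They are described without a test. The first runs from ASMM10P027181 to ASMM10P027207, 27 numbers of which 21 are on the array: 7 members, 13 untabled probes and 1 other tabled probe. In it 19 of the 21 probes were detected on all 3 adult arrays, and 10 had an adult mean above 8. The members and the probes added by widening were chosen on adult signal, so the choice partly fixed these counts. The untabled ASMM10P027199 had adult values of 11.33, 11.89 and 11.85 and, with no prenatal array detected, was at least 24791-fold higher in the adult. ASMM10P027190 had 11.39, 11.87 and 11.88 and was detected on 1 prenatal array, at -2.49. ASMM10P027192 was detected on all 6 arrays, with 1.62, 1.37 and 1.78 before birth and 7.81, 7.23 and 7.08 in the adult. ASMM10P027187 and ASMM10P027201, with adult means of -2.57 and -2.74, were the 2 probes of this stretch not detected on all 3 adult arrays.

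The second stretch runs from ASMM10P028912 to ASMM10P028919, with 5 members among 8 probes. Besides ASMM10P028912 and ASMM10P028914 it held ASMM10P028916, with adult values of 3.63, 2.94 and 3.48, ASMM10P028917, with -1.94, -1.59 and -2.13, and ASMM10P028919, with 4.02, 4.42 and 4.17. Between them, ASMM10P028913 and ASMM10P028918 were detected on no array. ASMM10P028915 was detected on all 6, with -1.32, 1.57 and 1.15 before birth and 5.64, 5.32 and 5.23 in the adult. Levels in this stretch thus ran from undetected to the brightest of all members.

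Together both stretches held 4 of the 7 brightest members and 9 of the 15 brightest. Of the 14 adult-only ASMM10P probes with an adult mean of 8 or more, tabled or not, 7 lay there. On the array itself the spots of these members were scattered, over rows 27 to 373 for the first stretch and rows 125 to 337 for the second, of 384 rows.

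**Figure D5:**
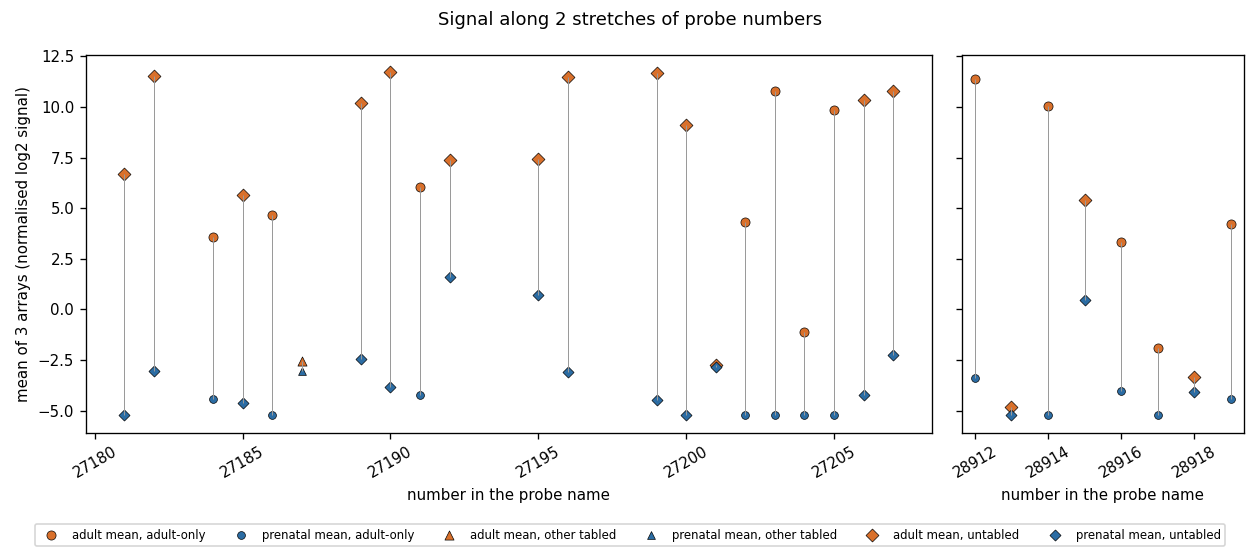
Mean normalised log2 signal of the 3 adult arrays (orange) and the 3 prenatal arrays (blue) for each probe on the array with a number from 27181 to 27207 (left) and from 28912 to 28919 (right), joined by a line; circles are adult-only probes, triangles other tabled probes and diamonds untabled probes. In the left panel 10 of 21 probes have an adult mean above 8, and bright, middling and dim probes are interspersed in both panels. Both stretches were chosen partly on adult signal.

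Probes numbered directly next to a member, which the rule did not use, were compared between the groups. Of 546 such probes that are not themselves members, 309 were tested. In the limma fit 76 of these (24.6%) were called higher in the adult, against 15.8% of all tested probes, and 32 (10.4%) were called lower, against 12.0%. Of the 76, 45 were detected on all 6 arrays. Leaving out the neighbours in both stretches above, 71 of 303 (23.4%) were called higher. At distances of 2, 3, 4, 5, 10, 20 and 50 numbers the share called higher was 14.9% to 19.1%, highest at 4. Without prenatal replicate 1, 90 of the 309 direct neighbours (29.1%) were called higher, against 19.3% of all tested probes. The difference between the share next to a member and the background was not tested.

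Named by the size of the difference, the neighbours called higher were led by ASMM10P020056 and ASMM10P027190 (above). ASMM10P027206 was at least 9646-fold higher in the adult, with no prenatal array detected (limma adjusted p = 5.32e-06). ASMM10P055455, detected on all 6 arrays, rose from -2.29 ± 0.37 (SD, n = 3) to 10.83 ± 0.26 (SD, n = 3) in adults, a log2 difference of 13.12 with a standard error of 0.30 (limma adjusted p = 5.32e-06). It adjoins the member ASMM10P055456. ASMM10P028085, detected on 2 prenatal arrays, had adult values of 9.70, 10.09 and 9.59, and adjoins ASMM10P028086, a dim member with -0.04, -0.55 and -0.46. A bright neighbour thus occurred beside members of very different brightness.

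Neighbours could also differ in the opposite direction. ASMM10P021122 had 8.09, 6.99 and 5.28 before birth and -0.32, -0.44 and 0.52 in the adult, so that it fell by 6.87 on the log2 scale (limma adjusted p = 0.00086). It adjoins ASMM10P021121, a member with -2.84, -3.68 and -4.30 before birth and 1.99, 2.40 and 2.92 in the adult. ASMM10P034810 fell by 5.34 (limma adjusted p = 6.04e-05) beside the member ASMM10P034811, and ASMM10P016427 fell by 5.14 (limma adjusted p = 7.58e-05) beside ASMM10P016428. Adjacent numbers therefore carried opposite changes in these 3 cases, which were named because their falls were the largest among the neighbours. The direction of the member in each case was fixed by the rule.

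In the authors' deposited table, on its own log2 scale, the members' mean adult values ran from 4.20 to 17.72. The median over the members was 5.20, 5.27 and 5.25 in the columns of adult replicates 1, 2 and 3, and 2.36, 2.40 and 2.34 in those of the prenatal replicates. The groups did not overlap there on any of the 288 probes. The table holds the same arrays and the contrast that chose the members. The share over all tabled probes is not given here, so nothing is read from this count. The log2 difference, adult minus prenatal, had a median of 2.72 and ranged from 1.09 to 14.81 in that table. Many low prenatal signals shared a single lowest value per array there. On prenatal replicate 1, for example, ASMM10P048542 and ASMM10P027203 both read 2.36, against -3.91 and -4.78 on the scale used above. Many of these differences therefore rest on that lowest value. The order of the brightest members by this difference changed with the treatment of low signals: ASMM10P027203 led in the table, at 14.81, and ASMM10P028912 led with the normexp correction, at 11.80.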

How the data were processed

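The deposited scanner files give a background-subtracted intensity for each spot. The submitters' processing notes name Agilent Feature Extraction, version 11.0.1.1. The authors also deposited a table of log2 values, made by a normalisation not given in the sources used here. A quantile normalisation of the log2 signals matched 95.7% of its values to within 0.01. Its scale, centring and direction were read from that match. Per the file headers, each spot also carries detection and outlier flags.

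Each signal was expressed as log2 after subtracting, per array, the log2 75th percentile of non-control spots. Outlier spots were dropped (no member had one), and repeat spots of a probe averaged. Of 60915 probes, 32336 detected on at least 3 of 6 arrays were tested by a two-sided moderated fit (lmFit, then eBayes) using R 4.3.3 and limma 3.58.1, with Benjamini-Hochberg adjustment over them all and a threshold of 0.05. The fit was checked on simulated data. Groups come from the sample titles. Members, lists and stretches of probe numbers were chosen with earlier results of these data known. Probes are named as the brightest 10 and dimmest 3, the 3 with the smallest and the 3 with the largest adult SD, the 3 with the highest prenatal mean, the 3 closest outside the rule, all in runs of consecutive numbers, and 5 higher and 3 lower neighbours; other names were chosen after their values were seen. The normexp alternative (offset 50) used median spot signals. Alternatives were the scaling, that background correction, filter, variance model, scan date and replicate number as blocks, detection flag, floor, the deposited table, and each array left out in turn.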

Additional observations from a re-analysis of the deposited data

How the results depend on the processing

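The number of members depended on the detection criterion and on which prenatal arrays were used. It was 40 with the weaker flag (positive and significant), 651 when 1 prenatal detection was allowed and 486 with untabled probes; leaving out an array gave 288 to 616, highest without prenatal replicate 2. Requiring only 2 adult arrays, or leaving out an adult array, could only give 288 again, because tabled probes need 3 detections. The median bound of 1.59 (log2) became 0.67 with normexp, and as a plain difference of means 3.24, or 2.72 in the authors' table; leaving out an array gave 1.25 to 1.81.

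The count of all called probes, 8987, was 5957 on probes detected on all 6 arrays, 4539 over the probes of the authors' table and 5313 to 11561 with an array left out, lowest without adult replicate 2. Neighbours called higher numbered 48 on probes detected on all 6 arrays, which leaves 210 neighbours to test (22.9%, against 15.9% of all probes), and 53 to 91 in the other 13 fits, always a larger share than over all tested probes. With the replicate block, 4505 probes were called in either direction. In that fit 53 neighbours and 259 members were called higher, against 7.92% of all tested probes. The members were chosen on this contrast, so their count is a description. Same-numbered arrays deviated in opposite directions (correlations -0.525, -0.349 and -0.313). These correlations cannot settle whether the numbers pair the arrays, because scan date did not follow the numbers. The causes were not tested. Signal over background limits every member: below detection only bounds can be read.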
